A study of Mus musculus with 40 samples.

Results

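The orphan nuclear receptors Nr0b1, Nr5a2, Nr6a1, Nr2f1, Nr2f2 and Nr2f6 were followed in mouse embryonic stem (ES) cells on 40 two-color oligonucleotide arrays while Pou5f1 was turned off, while leukemia inhibitory factor (LIF) was withdrawn or retinoic acid (RA) added, and in lines that carry a Nanog transgene. The genes were chosen by name, and every gene probe that could be assigned to one of them was taken. Each gene had 1 probe on each of the 3 array designs, so that 6 of 42006, 6 of 21052 and 6 of 41006 gene probes are described.

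Nuclear receptors are transcription factors that in many cases are switched by a small lipophilic ligand, and those without an established physiological ligand are called orphans. Nr0b1 (DAX1) lacks the usual DNA-binding domain and acts mainly as a partner that represses other receptors, and it belongs to the regulators of the ES cell state. Nr5a2 (LRH-1) binds DNA as a monomer and can drive Pou5f1 through its regulatory regions, whereas Nr6a1 (GCNF) binds the Pou5f1 promoter and silences it during differentiation. Nr2f1 and Nr2f2 are the COUP-TFs, which respond to RA in embryonal cells and can repress Pou5f1, and Nr2f6 (EAR2) is their close relative.

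In the early experiment, ZHBTc4 ES cells (strain 129/Ola), in which both Pou5f1 alleles are disrupted and Pou5f1 comes from a transgene shut off by tetracycline (Tet), were harvested after 0, 3, 6, 12 and 24 hr of Tet, with 2 arrays per time on an NIA whole-genome mouse design (version 2.2). In the late experiment the same line was measured before Tet (0 hr) and daily from 24 to 120 hr, with 3 arrays per time on a smaller NIA mouse design (Dev2). In the Nanog experiment, 4 lines were cultured for 3 days with LIF, without LIF, or with LIF and 1 µM RA, with 1 array each on the NIA whole-genome design of version 2.1. The lines were a clone with an integrated Nanog transgene (Nanog/EF1#6, made with a pEF6/pIRESneo3 construct) compared with the parental line ES 129.3, both labeled 129SvEv-Tac, and a clone with an episomal Nanog transgene (in the pPyCAGIP vector) compared with the parental line MG1.19, which expresses polyoma large T antigen, both labeled 129Sv. ES 129.3 was taken as the parental line of the integrated clone because the labels give both the same strain. The study's methods call the line that received this construct MC1, and the series' description gives other parental lines for both clones, so that the differences between a clone and its parental line hold only if this pairing is right. All samples were labeled with Cy3 and hybridized against a Universal Mouse Reference RNA in Cy5. ZHBTc4 is 1 line, each transgene is 1 clone, and the labels do not say whether arrays of 1 time came from separate cultures, so that p-values measure the spread between arrays, which may be technical.

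The 60-base probe of each receptor was identical on the 3 designs, which is what allowed the same gene to be followed through all experiments. The first 30 bases of each probe are given. Every value below is the signal of the whole 60-base probe and of no other part of the transcript.
Nr0b1: gagtgtggtactaggctaacaagctaattt
Nr5a2: aatgatatatcagggtatttgtactgcaaa
Nr6a1: agactttggccagaccaactaggtttgtct
Nr2f1: atttttgatataaccctttgcttcttataa
Nr2f2: gaaacagaaggaactgtggaatttattggc
Nr2f6: tgtcatgggtatctggaaaggccactgcag
The G and C content of the whole probe was 35.0% for Nr0b1, Nr5a2 and Nr2f1, 45.0% for Nr6a1 and Nr2f2, and 55.0% for Nr2f6. Because a probe's signal also depends on its letters, levels are compared for 1 probe between arrays and never between receptors.

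Values are log2(Cy3/Cy5), called the level here, so that 1 unit is a 2-fold difference. A receptor was said to have risen or fallen where limma's test gave a Benjamini-Hochberg adjusted p of at most 0.05 over all gene probes and the change was at least 1.5-fold. The probe with which the early and late designs share the Pou5f1 sequence fell by 2.79 after 24 hr of Tet in the early experiment and by 2.18 in the late one. A brighter Pou5f1 probe found on the early arrays changed by only -0.55 at 24 hr (adjusted p = 0.0285). The Nanog probe differed between transgenic and parental lines by 0.75 for the integrated clone (adjusted p = 0.0702) and by -0.57 for the episomal clone (adjusted p = 0.434), and thus did not pass the test for either. The study's methods, however, report raised Nanog in both clones by real-time PCR. Whether the array probe detects RNA of the transgenes was not tested. Arrays of 1 time correlated at 0.957 to 0.985. On the late arrays 16.3% to 30.2% of the gene spots were dimmer than 95% of the negative controls, against 0.414% to 6.78% on the early and 1.78% to 5.07% on the Nanog arrays.

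Nr0b1 was the first of the 6 receptors to pass the test after Tet, and it fell furthest in both experiments. On the early arrays its level was 3.91 and 3.97 at 0 hr, 3.99 and 3.92 at 3 hr, 3.37 and 3.57 at 6 hr, 2.51 and 2.59 at 12 hr, ending with 1.81 and 1.74 after 24 hr. The 3 hr arrays overlapped those of 0 hr, and from 6 hr on each later pair of arrays lay wholly below the pair before it. The change reached -2.17 at 24 hr, which is 4.49-fold lower (standard error 0.0955, limma adjusted p = 1.01e-05), with -0.47 at 6 hr (adjusted p = 0.0434, under 1.5-fold) and -1.39 at 12 hr (adjusted p = 0.00039). At 6 hr 2.21% of all gene probes passed in either direction, and at 12 hr 0.593%. Because RNA was taken from whole cultures, fewer cells that express a gene and less of its RNA per cell cannot be told apart here or in any result below.

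In the late experiment the level of Nr0b1 was 3.49, 3.72 and 3.83 at 0 hr and 1.48, 1.44 and 1.30 at 24 hr. It was 0.58, 0.39 and 0.44 at 48 hr, 0.14, 0.20 and 0.14 at 72 hr, 0.08, 0.13 and 0.06 at 96 hr, followed by 0.13, 0.16 and 0.21 after 120 hr. The groups of 0, 24, 48 and 72 hr did not overlap, and the arrays of 72, 96 and 120 hr lay within a narrow band. Against 0 hr the change was -2.27 on the first day and -3.21 on the second, and at 96 hr it was -3.58, 12.0-fold lower (standard error 0.0748, limma adjusted p = 5.66e-16). All times of an experiment share the 0 hr arrays, and so the change of each single day was tested as well. From 24 to 48 hr Nr0b1 fell by 0.94 (adjusted p = 1.63e-07), when 3.38% of all gene probes passed in either direction. From 48 to 72 hr its change was -0.31 (adjusted p = 0.00966, under 1.5-fold), and in the last 2 days it was -0.07 and 0.08. It was the only one of the 6 receptors that passed in any of these daily steps, of which the later ones were passed by 2.74%, 1.35% and 0.58% of all gene probes. Its Cy3 signal at 120 hr lay only a little above the negative controls on 3 of 3 arrays. It was 565, 591 and 575, against 506, 511 and 507 for the 95th percentile of the controls. At 0 hr it had been 4294, 3838 and 5858. The size of the fall and the narrow band of the last days are therefore uncertain.

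**Figure D1:**
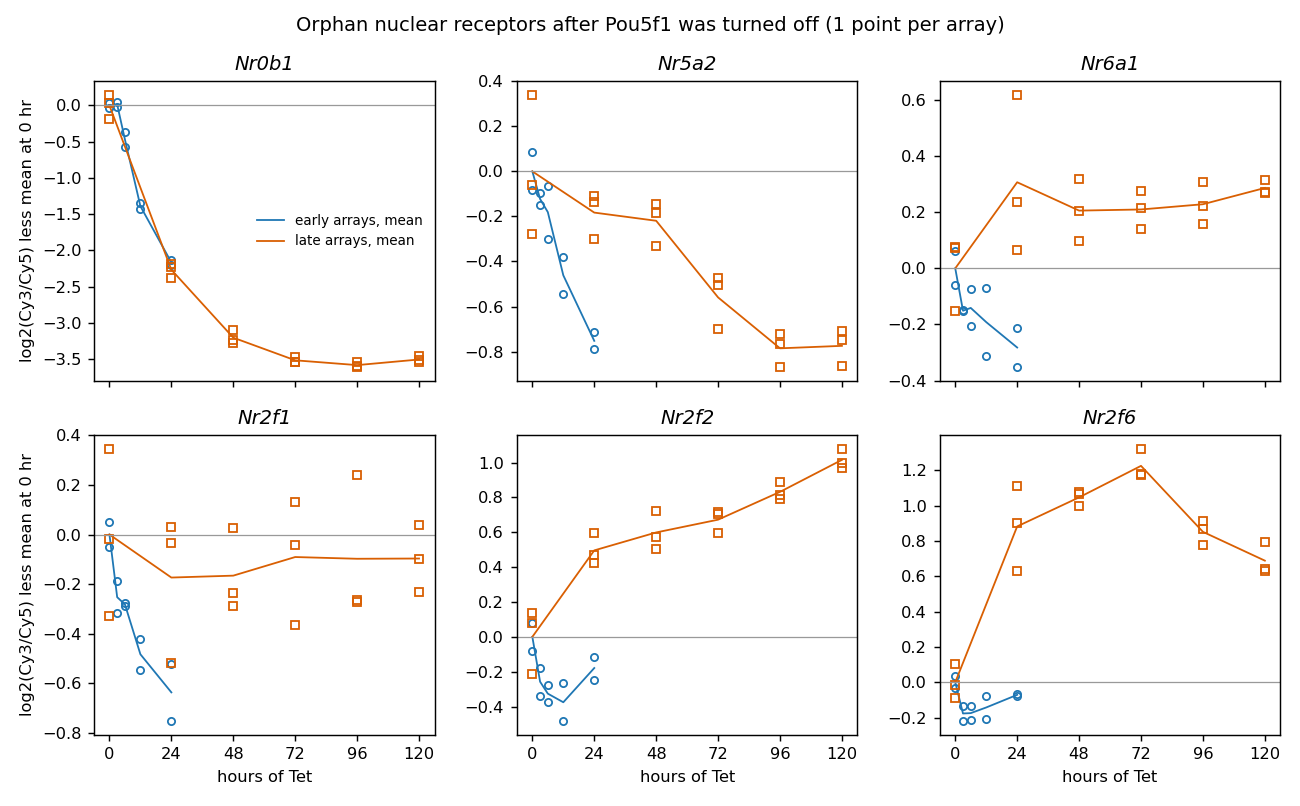
Level of each receptor, as log2(Cy3/Cy5) less the mean of the 0 hr arrays of the same experiment, against hours of Tet; each point is 1 array, circles and the blue line (mean) are the early arrays and squares and the orange line the late arrays, and each panel has its own vertical scale. As processed for this figure, Nr0b1 changed at 24 hr by -2.17 on the early and by -2.27 on the late arrays. Nr2f2 and Nr2f6 are higher than at 0 hr after 24 hr on the late arrays (0.50 and 0.88). On the early ones they are not (-0.18 and -0.07).

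Nr5a2, the activator of Pou5f1, fell in both experiments. On the early arrays its level was 2.26 and 2.43 at 0 hr, 2.20 and 2.25 at 3 hr, 2.05 and 2.28 at 6 hr, 1.97 and 1.80 at 12 hr, ending with 1.63 and 1.55 after 24 hr. The arrays of 12 and 24 hr lay below those of 0 hr, and only 24 hr passed the test, with a change of -0.75 (1.68-fold lower, standard error 0.11, limma adjusted p = 0.00295). The late arrays read 0.66, 0.44 and 1.06 before Tet, 0.59, 0.61 and 0.42 after 24 hr, and 0.54, 0.58 and 0.39 after 48 hr, which all overlap. The arrays of 72 hr read 0.02, 0.25 and 0.22, those of 96 hr -0.15, -0.04 and 0.00, and those of 120 hr 0.01, -0.03 and -0.14. The change was -0.56 at 72 hr (under 1.5-fold), and the receptor had fallen by 0.79 at 96 hr (adjusted p = 2.5e-05) and by 0.77 at 120 hr (standard error 0.116, adjusted p = 2.54e-05). Its Cy3 signal, however, exceeded that of 95% of the negative controls (called above the negative controls here) on 1 of 18 late arrays only, against 10 of 10 early arrays. In the reference channel the scanner software placed it well above background on 2 of 10 early and 6 of 18 late arrays. The size of the fall on the late arrays is therefore uncertain.

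Nr2f6 rose on the late arrays and was highest at 72 hr. Its level on the late arrays was 0.11, -0.09 and -0.01 at 0 hr, 1.12, 0.91 and 0.63 at 24 hr, followed by 1.08, 1.07 and 1.00 after 48 hr. It was 1.18, 1.33 and 1.18 at 72 hr, 0.87, 0.91 and 0.78 at 96 hr, followed by 0.63, 0.80 and 0.65 after 120 hr. Every later array lay above those of 0 hr, and the 3 arrays of 72 hr were the highest of all 18. The rise was 0.88 at 24 hr, 1.23 at 72 hr (2.34-fold, standard error 0.094, limma adjusted p = 1.2e-08) and 0.69 at 120 hr (adjusted p = 9.18e-06). The decline from 72 to 96 hr was -0.37 (adjusted p = 0.018, under 1.5-fold). Its Cy3 signal was above the negative controls on 18 of 18 arrays, and over the processing alternatives the change at 72 hr lay between 1.15 and 1.40. On the early arrays no such rise was seen. The level was 0.75 and 0.82 at 0 hr, 0.56 to 0.71 on the 6 arrays in between, and 0.72 and 0.71 at 24 hr, where the change was -0.07 (standard error 0.0888, adjusted p = 0.581).

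Nr2f2 also rose on the late arrays, more slowly. Its level was -3.00, -3.06 and -3.35 at 0 hr, -2.54, -2.71 and -2.67 at 24 hr, followed by -2.56, -2.41 and -2.63 after 48 hr. It was -2.42, -2.54 and -2.43 at 72 hr, -2.34, -2.24 and -2.32 at 96 hr, followed by -2.14, -2.06 and -2.17 after 120 hr. No array after Tet overlapped those of 0 hr, and the 3 arrays of 120 hr were the highest of all. The change was 0.50 at 24 hr (adjusted p = 0.000183, under 1.5-fold), the rise was 0.60 at 48 hr, 0.67 at 72 hr and 0.83 at 96 hr, and it reached 1.02 at 120 hr (2.02-fold, standard error 0.0824, limma adjusted p = 1.47e-08). The spot was dim and the rise was not kept by every processing. The Cy3 signal lay above the negative controls on 3 of 18 arrays, and the change at 120 hr was 0.29 with the scanner software's own processed signals (adjusted p = 0.0263) and 0.38 with the normalized values that the authors deposited (adjusted p = 0.00359), both under 1.5-fold. At 48, 72 and 96 hr the change in Nr2f2 was 0.06, 0.05 and 0.19 with the processed signals (adjusted p = 0.696, 0.751 and 0.159) and 0.11, 0.11 and 0.27 with the authors' values (adjusted p = 0.435, 0.4 and 0.0363), so that none of these rises passed either way. With Cy3 alone it was 0.56 at 72 hr, and with scaling between arrays 0.52 at 48 hr and 0.40 at 72 hr, also under 1.5-fold. Without the third 0 hr array the change in Nr2f2 was 0.49 after 48 hr and 0.57 after 72 hr, and without the second 48 hr array it was 0.54 after 48 hr, each below 1.5-fold. On the early arrays, where the spot was above the negative controls on 10 of 10, Nr2f2 read -2.40 and -2.57 before Tet and -2.73 and -2.60 after 24 hr (change -0.18, adjusted p = 0.264), with its lowest array at -2.97 after 12 hr.

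Nr6a1, the repressor of Pou5f1, did not pass the test in either course. The early arrays read -0.34 and -0.22 before Tet and -0.49 and -0.63 after 24 hr, a change of -0.28 (standard error 0.109, limma adjusted p = 0.0863). The late arrays read -0.06, -0.29 and -0.06 before Tet, -0.07, 0.48 and 0.10 after 24 hr, and 0.13, 0.14 and 0.18 after 120 hr. All 3 arrays of 120 hr were higher than those of 0 hr, by 0.29 on average (adjusted p = 0.0372, under 1.5-fold). With the Cy3 channel alone this difference was 0.75 and passed for Nr6a1 (adjusted p = 0.000714), and the spot was above the negative controls on 4 of 18 late arrays.

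Nr2f1, the other COUP-TF, fell on the early arrays. Its level was -1.76 and -1.86 at 0 hr, -1.99 and -2.12 at 3 hr, -2.08 and -2.09 at 6 hr, -2.23 and -2.35 at 12 hr, ending with -2.56 and -2.33 after 24 hr. All arrays after Tet were lower than those of 0 hr, and the change was -0.64 at 24 hr (1.55-fold lower, standard error 0.105, limma adjusted p = 0.00496). Without the first 24 hr array the change in Nr2f1 was -0.52, below 1.5-fold, and it was 0.40 when the arrays were scaled to a common spread of log ratios. The level on the late arrays ranged from -3.30 to -2.63 at 0 hr, from -3.49 to -2.94 at 24 hr and from -3.20 to -2.93 at 120 hr, all overlapping, with a change at 120 hr of -0.10 (standard error 0.186, adjusted p = 0.716). The spot was above the negative controls on 14 of 18 late arrays.

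Counted together, 3 of 6 receptors (Nr0b1, Nr5a2 and Nr2f1) passed the test at 24 hr on the early arrays, all lower, where 9.02% of all gene probes passed in either direction and 1.97% were lower. The same 3 passed the F test over all times, which 5.4% of all gene probes passed. The number passing the F test was between 1 and 3 when single arrays were left out, and it was lowest without the second 0 hr array. In the late experiment 2 of 6 passed at 24 hr against 7.61% of all gene probes, 3 of 6 at 48 hr against 10.3%, 3 of 6 at 72 hr against 14.4%, and 4 of 6 both at 96 hr against 17.9% and at 120 hr against 20.7%. The F test was passed by 4 of 6 receptors and by 24.6% of all gene probes. The median change of the 6 receptors was -0.46 at 24 hr on the early arrays, where the median of all gene probes was -0.06, and 0.09 at 120 hr on the late arrays, where that of all gene probes was 0.00. The receptors that passed had thus moved in both directions on the late arrays, and were all lower on the early ones.

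The reference channel moved with time on the early arrays. A Cy5 index (the mean log2 Cy5 signal of the genes by which bleaching of the dye was followed) was 10.9 and 11.4 on the 0 hr arrays and 9.15 and 9.77 on the 24 hr arrays, so that Cy5 was dimmer at 24 hr. With the correction for Cy5 bleaching, the 24 hr change was -2.21 for Nr0b1 and -0.59 for Nr5a2, both still past the test, but -0.36 for Nr2f1 (adjusted p = 0.088). With the Cy3 channel alone it was -2.99 for Nr0b1, and for Nr5a2 and Nr2f1 it was -0.56 and -0.37, under 1.5-fold. The larger error variance that the study's methods describe was used in an F test over all times, in place of limma's variance. With it 0 of 6 receptors passed on the early arrays, while 2 of 6 had an unadjusted p below 0.05 in this F test. How many of all gene probes passed with this variance was not counted, so that the receptors cannot be set against them. In the late experiment the same index lay between 9.52 and 9.70 at 0 hr and between 9.68 and 9.96 at 120 hr.

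**Figure D2:**
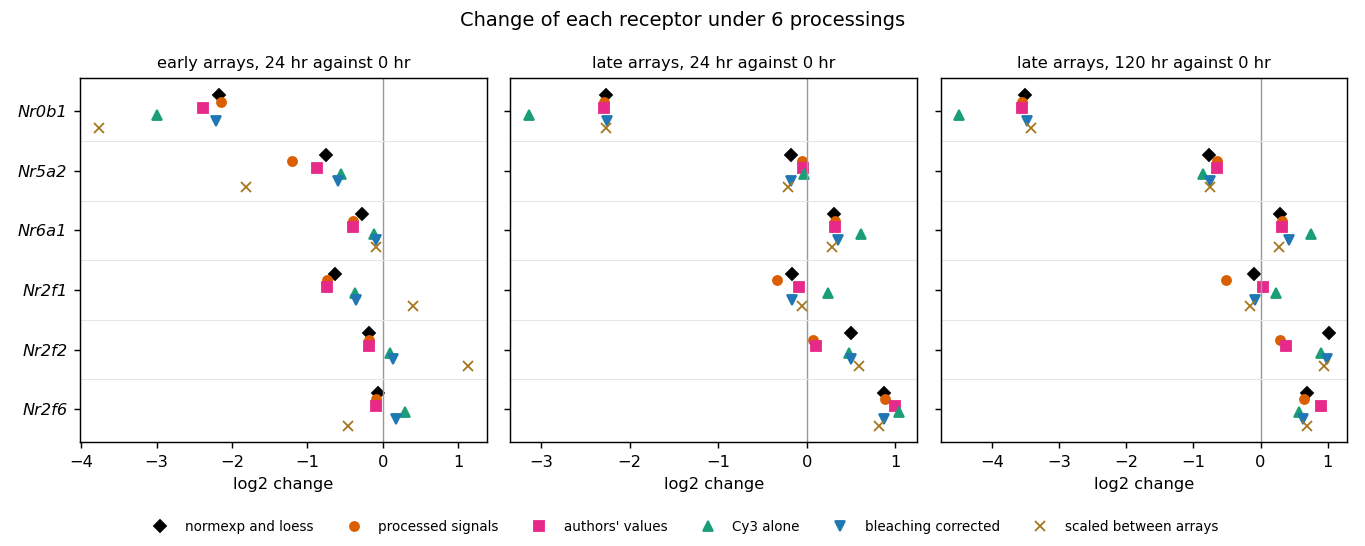
Log2 change of each receptor (rows) at 24 hr on the early arrays and at 24 and 120 hr on the late arrays, with 1 symbol for each of 6 ways to process the same scanner files; the vertical line is no change. Nr0b1 stays far to the left under all 6 (between -4.49 and -2.14), whereas Nr2f1, Nr2f2 and Nr2f6 lie on both sides of the line on the early arrays.

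The first day of Tet was measured in both experiments with the same probes, which allowed a direct test of the difference between the 2 first days. None was detected for Nr0b1, which changed by -2.17 in the early and by -2.27 in the late experiment. Its change on the early less that on the late arrays was 0.10 (standard error 0.12, limma adjusted p = 0.553). Over the processing alternatives this difference lay between -1.5 and 0.15, and it was lowest with scaling between arrays. The change differed for Nr2f6 by -0.95 (adjusted p = 2.53e-05), for Nr2f2 by -0.68 (adjusted p = 0.000804) and for Nr6a1 by -0.59 (adjusted p = 0.00864). For these 3 the late arrays of 24 hr lay higher on average than those of 0 hr, and the early ones lower. The differences for Nr5a2, -0.57 (adjusted p = 0.0164, under 1.5-fold), and Nr2f1, -0.46 (adjusted p = 0.183), did not pass. Thus 3 of 6 receptors passed, where 15.2% of the 19146 shared probes tested did so. With the correction for Cy5 bleaching only Nr2f6 passed (-0.70), and Nr6a1 (-0.45) and Nr2f2 (-0.35) did not. Without the second late 24 hr array, whose level of Nr6a1 was the highest, the difference for Nr6a1 was -0.43, and it was also under 1.5-fold without the second array of 0 hr in either experiment or the second early array of 24 hr, while that of Nr2f2 was -0.57 without the third late 0 hr array.

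The 0 hr arrays of the late experiment also differed from the later ones where no gene is measured. The median Cy3 signal of the negative controls was 573 to 586 at 0 hr, 483 to 549 at 24 hr and 480 to 485 at 120 hr, and their part in the differences from 0 hr was not tested. In an alternative added after the data were seen, the 0 hr arrays were left out and each later time compared with 24 hr. With it 2 of 6 receptors passed the F test, and the share of all gene probes that passed was not counted. Nr0b1 had fallen by a further 1.32 at 96 hr and Nr5a2 by 0.60. Nr2f2 was 0.52 higher at 120 than at 24 hr (adjusted p = 1.03e-05, under 1.5-fold), and Nr2f6 was 0.34 higher at 72 hr (adjusted p = 0.0132, under 1.5-fold) and -0.19 at 120 hr. A filter that keeps probes above the negative controls on more than 50% of the arrays removed Nr5a2, Nr6a1 and Nr2f2 from the late arrays and left Nr0b1, Nr2f1 and Nr2f6.

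**Figure D3:**
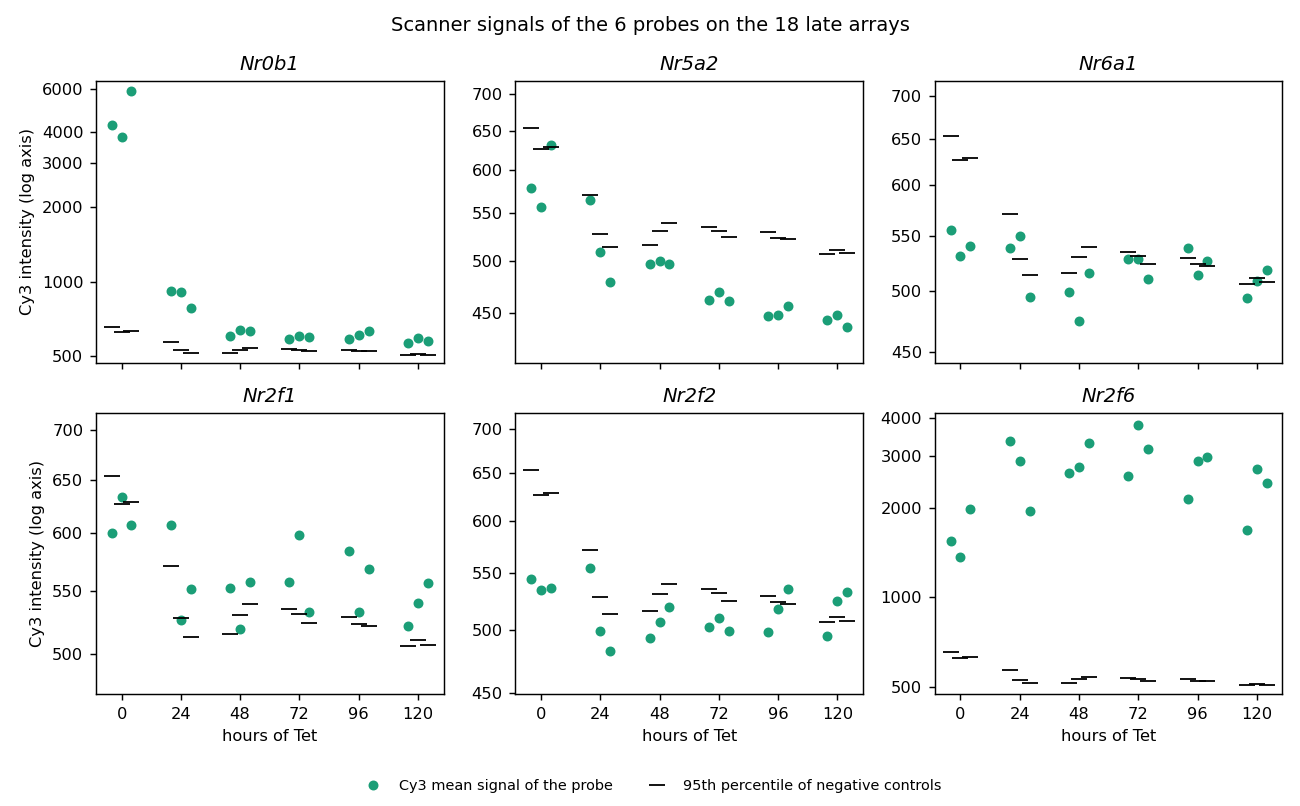
Cy3 mean signal of each receptor's spot (points, intensity on a log axis, each panel with its own range) on the 18 late arrays against hours of Tet, with a dash at the 95th percentile of that array's negative controls. Nr0b1 and Nr2f6 lie above the dash on 18 of 18 arrays, and Nr5a2 on 1, Nr2f2 on 3 and Nr6a1 on 4.

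In the Nanog experiment all 6 probes lay above the negative controls on 12 of 12 arrays, and the 4 lines served as the replicates of a medium, although a clone and its parental line are not independent. Nr5a2 and Nr2f2 were close to that limit on several arrays. The Cy3 signal of Nr5a2 was 420 against 404 in ES 129.3 without LIF, and 432 against 413 in MG1.19 with RA. It was highest in the integrated clone with RA, at 579 against 410. With LIF, Nr2f2 read 461 against 410 in ES 129.3 and 436 against 400 in the integrated clone. It read 444 against 415 in MG1.19 and 460 against 433 in the episomal clone. The sizes of their changes are therefore uncertain. The labels of the media were borne out by 2 genes: Socs3, a target of LIF signaling, changed by -2.62 without LIF, and Cyp26a1, the enzyme that degrades RA, by 2.65 with RA. The media with and without RA share the LIF arrays as control. In the reference channel Nr5a2 was well above background on 5 of 12 and Nr0b1 on 10 of 12 arrays.

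Withdrawal of LIF lowered Nr0b1 and Nr5a2. In LIF the level of Nr0b1 was 4.29 in ES 129.3, 5.62 in the integrated clone, 4.93 in MG1.19 and 4.92 in the episomal clone. Without LIF it was 1.45, 4.02, 2.23 and 3.05 in the same order. It was lower in 4 of 4 lines, with changes between -2.83 and -1.61, and the mean change was -2.25 (4.77-fold lower, standard error 0.261, limma adjusted p = 0.00855). The level of Nr5a2 was 0.99, 1.68, 1.12 and 0.86 with LIF and 0.18, 0.94, 0.52 and 0.52 without, again lower in 4 of 4 lines, with a mean change of -0.63 (1.54-fold, standard error 0.111, adjusted p = 0.0358). Nr2f6 was higher in 4 of 4 lines, from 0.10 in ES 129.3 to 1.14 in the episomal clone, but its mean change of 0.58 (adjusted p = 0.116) did not pass, and neither did those of Nr6a1, 0.12, Nr2f1, -0.26, and Nr2f2, -0.08. Thus 2 of 6 receptors passed, against 1.04% of all gene probes. Both calls were lost when MG1.19 was left out, where Nr0b1 changed by -2.11 (adjusted p = 0.149) and Nr5a2 by -0.63, and both were lost with the processed signals, at -2.22 for Nr0b1 (adjusted p = 0.0522) and -0.99 for Nr5a2 (adjusted p = 0.0652). The call of Nr5a2 was also lost without ES 129.3 and without the integrated clone.

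RA lowered the same 2 receptors and raised Nr2f2. The level of Nr0b1 with RA was 1.46 in ES 129.3, 3.80 in the integrated clone, 1.58 in MG1.19 and 1.79 in the episomal clone, which is lower than with LIF in 4 of 4 lines and by 2.78 on average (6.88-fold, standard error 0.261, limma adjusted p = 0.000411). The integrated clone stood apart, with the highest level in every medium. Nr5a2 was at 0.41, 1.21, 0.30 and 0.08 in the same order of lines, lower in 4 of 4, with a mean change of -0.66 (adjusted p = 0.00512). With the correction for Cy5 bleaching the mean change of Nr5a2 was -0.50 (adjusted p = 0.167) and did not pass, and the integrated clone then read 1.92 with RA against 1.67 with LIF, higher rather than lower.

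The level of Nr2f2 was -3.11 in ES 129.3, -2.96 in the integrated clone, -3.05 in MG1.19 and -3.14 in the episomal clone with LIF. With RA it was -1.71, -2.79, -1.85 and -2.10. Every line was higher with RA than with LIF, by 1.39, 0.17, 1.20 and 1.04 in turn, and the mean rise was 0.95 (1.93-fold, standard error 0.166, limma adjusted p = 0.00633). Against the medium without LIF the rise was 1.03 (2.05-fold, adjusted p = 0.00447), and it was between 0.93 and 1.18 when any 1 line was left out. Nr2f1 differed more between the lines. It was higher with RA than with LIF by 2.33 in ES 129.3, 0.92 in MG1.19, 0.57 in the episomal clone and 0.41 in the integrated clone, and the mean of 1.06 (standard error 0.387, adjusted p = 0.116) did not pass. Against the medium without LIF the mean change of Nr2f1 was 1.32 (adjusted p = 0.0567), and it was 1.76 and passed without the integrated clone, whose own change was 0.00. Nr6a1 (0.04) and Nr2f6 (0.15) did not pass with RA against LIF.

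Thus 3 of 6 receptors passed for RA against LIF, where 5.87% of all gene probes did so, and 1 of 6, Nr2f2, for RA against the medium without LIF, where 5.77% did so. Without MG1.19 only Nr0b1 passed for RA against LIF, and for Nr2f2 the change was then 0.87 and for Nr5a2 -0.61. The response to RA in the transgenic less that in the parental lines was -0.69 for Nr2f2 and -1.13 for Nr2f1, but limma found 0 of 6 receptors and 0% of all gene probes past the threshold for this difference, with 1 of 6, Nr2f2, at an unadjusted p below 0.05 (adjusted p = 0.724 for both).

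**Figure D4:**
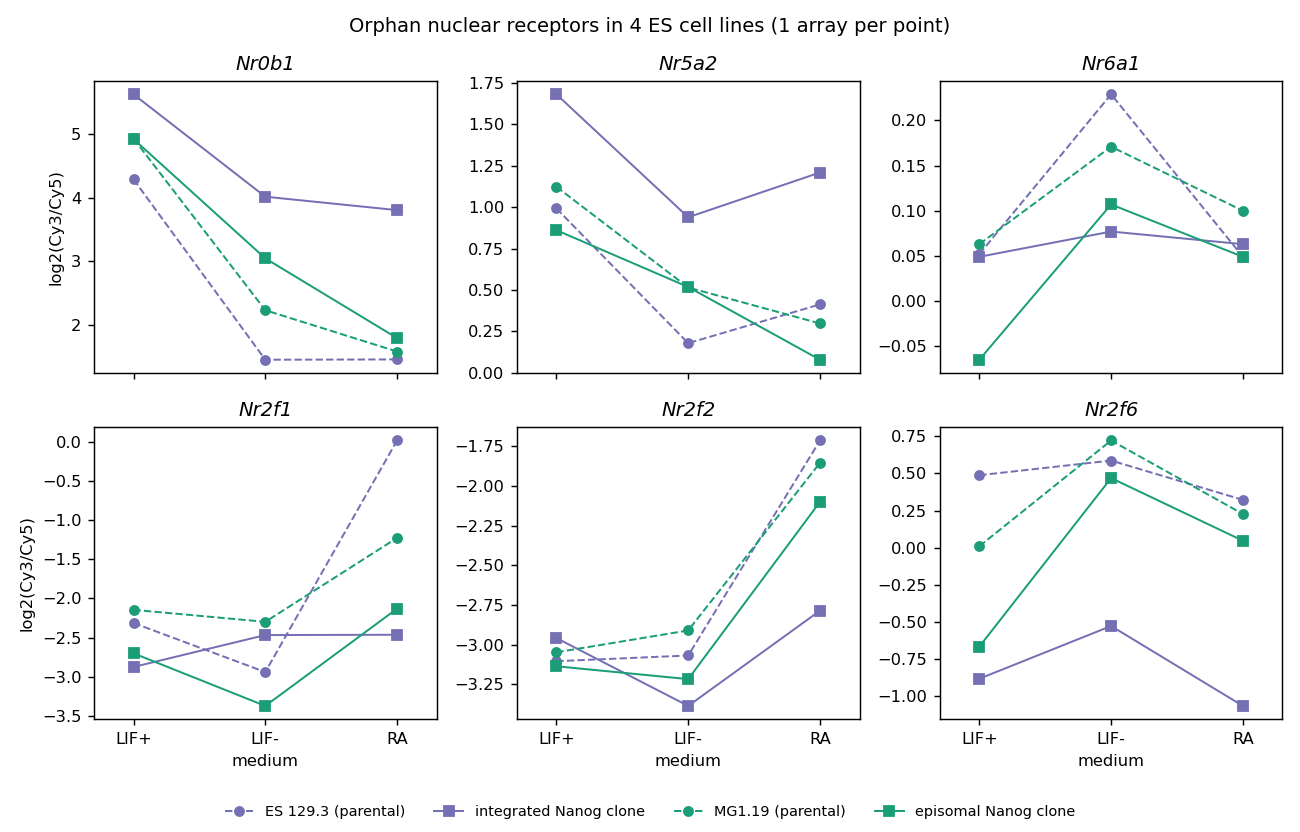
Level of each receptor, log2(Cy3/Cy5), in the 3 media (LIF+, LIF- and RA with LIF), with 1 array per point; dashed lines are the parental lines ES 129.3 (purple) and MG1.19 (green), solid lines the Nanog clones compared with them, and each panel has its own vertical scale. The integrated clone is highest for Nr0b1 and Nr5a2 and lowest for Nr2f6 in all 3 media, and Nr2f2 is higher with RA in all 4 lines.

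For the Nanog transgene, 6 pairs of a transgenic and a parental array of the same medium were compared. No receptor passed: limma called 0 of 6, and 3 of 6 had an unadjusted p below 0.05, while 0.00488% of all gene probes passed. The 3 pairs of 1 clone are not independent, so that these p-values are too small for 2 clones. Nr2f6 was lower in the transgenic array in 6 of 6 pairs, by 1.11 to 1.39 in the integrated and by 0.18 to 0.68 in the episomal clone (mean -0.83, standard error 0.186, adjusted p = 0.0907). Nr0b1 was higher in 5 of 6 pairs (mean 1.21, adjusted p = 0.142), by 1.34 to 2.56 in the integrated clone and by -0.01 to 0.82 in the episomal one. Nr5a2 was higher in the integrated clone by 0.69, 0.76 and 0.80 but differed by -0.26, 0.00 and -0.22 in the episomal clone.

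In the 3 pairs of the integrated clone alone, which are 3 media of 1 clone, Nr0b1 was higher by 2.08 (adjusted p = 0.0212), Nr5a2 by 0.75 (adjusted p = 0.00848), and Nr2f6 changed by -1.29 (adjusted p = 0.00727). How many of all gene probes passed in these pairs was not counted. Whether the 2 clones differed was tested directly. The difference of the integrated from the episomal clone, each less its parental line, was 1.74 for Nr0b1 (adjusted p = 0.123), 0.91 for Nr5a2 (adjusted p = 0.0764) and -0.92 for Nr2f6 (adjusted p = 0.172). Limma called 0 of 6 receptors for it, with 3 of 6 at an unadjusted p below 0.05, and 0.497% of all gene probes passed. The arrays of the 2 clones also differ in strain (129SvEv-Tac and 129Sv) and in the day on which the scans were processed. These cannot be told apart from the clones. A clone and its parental line share strain and day. The titles name a passage for the parental lines but not for the clones, so that passage may differ within a pair.

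The other genes of the receptor system were counted by lists. Of 13 other orphan receptors on the late arrays, 1 had risen and 1 had fallen at 120 hr (median change -0.13). Of 19 ligand-bound nuclear receptors 3 had risen, namely Pparg, Rxra and Vdr (median 0.00). Of 16 coregulators 3 had risen and 7 had fallen (median -0.18), and of 10 genes for retinoid handling 2 had risen and 2 had fallen (median 0.02). The median of all gene probes was 0.00, and 20.7% of them passed. Among the largest changes in these genes were changes of -2.99 in Stra8, a gene induced by RA in germ cells, and of -2.82 in the corepressor Rcor2, and rises of Pparg, the fatty acid sensor, by 2.57 and of Vdr, the vitamin D receptor, by 2.51. At 24 hr on the early arrays 2 of 14 other orphan receptors passed, both higher, where 9.02% of all gene probes passed and 1.97% were lower.

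With RA against LIF, 5 of 11 genes for retinoid handling passed, all of them higher (median 0.33, against -0.01 for all gene probes). Of 14 other orphan receptors 1 had risen and 1 had fallen, of 19 ligand-bound receptors 1 had risen, and of 17 coregulators 1 had risen and 2 had fallen. Among the largest changes were rises of Cyp26a1 by 2.65, of the RA receptor Rarb by 2.10, of Stra8 by 1.92 and of Zfpm1, a cofactor of GATA proteins, by 1.54. Stra8 rose here and had fallen after 120 hr of Tet, when Rarb changed by -0.07 (adjusted p = 0.374) and Cyp26a1 by 0.05 (adjusted p = 0.699).

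Markers of cell types moved in the same samples. Of 12 ES cell markers 11 had fallen at 120 hr on the late arrays and 6 with RA, and of 11 trophoblast markers 9 had risen at 120 hr. The summed level of the 8 trophoblast markers measured on all late arrays (log2 of their summed Cy3/Cy5 ratios) went from 2.75 to 2.83 at 0 hr to 5.81 to 5.97 at 120 hr. Markers of fibroblasts were counted because ES cells are grown on feeder cells. The study's methods describe 2 passages on gelatin to remove these for the early cultures, and 2 such passages for the Nanog lines. RNA of the late experiment came from earlier work, for which they do not describe the removal. Of 9 fibroblast markers 1, Postn, had risen at 120 hr, and their summed level was 1.42 to 1.65 at 0 hr and 2.34 to 2.42 at 120 hr. With RA, 5 of 9 fibroblast markers, 5 of 9 endoderm markers and 7 of 12 trophoblast markers had risen, and the summed fibroblast level was 1.51 to 1.93 with LIF and 1.89 to 2.74 with RA. It was highest with RA in ES 129.3, the line in which Nr2f1 and Nr2f2 were also highest. The part of these cell types in the levels of Nr2f1, Nr2f2 and the other receptors was not tested.

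As a description, the named genes whose level followed each receptor most closely over the 18 late arrays were listed by Pearson's r. The 18 points share times, arrays and the reference, and no test was made. They were Lrrc2, Spata31d1a and Jam2 for Nr0b1 (0.995 each), Defa24 (0.958), Gstm1 (0.955) and Chek1 (0.953) for Nr5a2, and Lamtor1 (0.975), Mgat1 (0.964) and Daxx (0.963) for Nr2f2. For Nr2f6 they were Mrpl54 (0.953), Tex19.1 (0.949) and Unc5b (0.944). The likeness was lower for Nr2f1, with Lyl1 (0.873), Ccl24 (0.861) and Hcst (0.857). It was also lower for Nr6a1, with Pla2g2f (0.840), Cct6a (0.820) and Vmn1r228 (0.816). Nr2f1 and Nr6a1 were the receptors that changed least on these arrays. The Cy3 signal was above the negative controls on 1 of 18 arrays for Nr5a2, 3 for Nr2f2 and 4 for Nr6a1. The likeness given for these dim spots is therefore uncertain.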

How the data were processed

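RNA of ZHBTc4 cells under Tet and of 4 Nanog and parental lines was measured on 40 two-color arrays. The authors deposited scanner files of Agilent Feature Extraction A.7.5.1 with mean signals, local backgrounds and processed signals in intensity units. They also deposited tables of normalized values in log10 units, adjusted through the Cy5 reference, that hold 25609 of 42006 gene probes of the early, 16292 of 21052 of the late and 40992 of 41006 of the Nanog arrays. Column medians of these tables were 2.94 to 2.99, 2.91 to 2.98 and 2.94 to 2.96, and their exact scaling is not given in the sources used here. In the Nanog data as deposited, 1 column counts as score values, because 10 cells carry a number that codes for no measurement. These were set to missing.

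With limma 3.58.1 in R 4.3.3, background was corrected by normexp (offset 50) on the mean signals, dyes were balanced by loess within arrays, spots flagged as outliers were set to missing, saturated spots were kept, control spots were left out, and replicate spots of a probe were averaged. Tests were two-sided (lmFit, eBayes), adjusted by Benjamini and Hochberg over all gene probes, and called at an adjusted p of 0.05 and 1.5-fold. The Tet courses were fitted per experiment, the Nanog arrays with pair, or with line or medium, as a block. Probes were named through accessions, through identical probes on another design, or through lists of the study (16887 early, 11708 late and 17233 Nanog probes); a gene counts by its brightest probe, and the genes named beside the 6 receptors are the called ones with the largest changes at 120 hr and with RA, less 1 gene that is not reported here by name. The members and lists were chosen with earlier results of these data known.

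The median Cy3 signal was 595 to 672 for early, 596 to 776 for late and 531 to 662 for Nanog arrays, with backgrounds between 365 and 390. The number of arrays limits the precision, and the Nanog conditions have no replicates. The protocol text given for the late samples is that of a different construct, and titles and the study's methods were followed there. Nanog clones were paired with parental lines by the strain in the labels, as the series' description and the study's methods name other lines for 1 or both clones. Alternatives were processed signals, Aquantile, scaling between arrays (added after the data were seen), Cy3 alone, correction of Cy5 bleaching, the authors' values, a filter on dim probes, the replicate number as a block, a larger error variance and leaving out arrays, pairs or lines. Pou5f1 suppression by other means, Sox2 and chromatin data were not analysed here.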

Additional observations from a re-analysis of the deposited data

Results flagged for a closer look

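Nr0b1 with RA was at 3.80 in the integrated Nanog clone, far from the next of the 4 lines at 1.79 (a gap of 0.857 of the whole range). Nr6a1 with LIF was at -0.065 in the episomal Nanog clone, with the next line at 0.049 (a gap of 0.891 of the range, though small in log2 units). Both gaps lie above Dixon's critical value for 4 values. Of 30 such groups tested 2 stood out, and chance alone marks about 1 in 20.

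The first day of Tet differed between the early and the late arrays for 3 receptors by limma's test of the difference itself: by -0.59 for Nr6a1, by -0.68 for Nr2f2 and by -0.95 for Nr2f6 (early less late). The 2 experiments differ in array design and were run separately, and these cannot be told apart.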

How the results depend on the processing

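The number of receptors that passed on the early arrays (3) was 1 with Cy3 alone and 0 with the larger error variance. That on the late arrays (4) was 2 after the filter on dim probes and 2 against 24 hr without the 0 hr arrays. For the first day (3) it was 1 with the bleaching correction and 1 after the filter on dim probes. For the transgene (0) it was 3 in the integrated pairs alone. For LIF withdrawal (2) it was 0 with processed signals, 0 with the authors' values, and 1 each with Cy3 alone, the bleaching correction and scaling between arrays. Leaving out single arrays, pairs or lines gave 1 to 3 early, 4 to 4 late, 1 to 1 for the daily steps, 2 to 4 for the first day, 0 to 0 for the transgene, 0 to 2 for LIF withdrawal, 1 to 3 for RA against LIF and 1 to 2 for RA against LIF withdrawal. The cause of these shifts was not tested. The shares of all gene probes were not counted under these alternatives, so that the counts of receptors cannot be set against them.

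Some directions turned, among values that had passed those of Nr2f1 at 24 hr and of Nr2f2 on the first day, both with scaling. At 24 hr on the early arrays Nr2f1 was 0.40 with scaling, Nr2f2 0.09 with Cy3 alone, 0.14 with the bleaching correction and 1.13 with scaling, and Nr2f6 0.29 with Cy3 alone and 0.17 with the bleaching correction. On the late arrays Nr2f1 was 0.24 at 24 hr and 0.23 at 120 hr with Cy3 alone, and at 120 hr 0.03 with the authors' values and -0.26 to 0.08 without single arrays. For the first day Nr0b1 was -0.10 with the authors' values and -1.50 with scaling, Nr2f1 0.45 and Nr2f2 0.54 with scaling. Nr5a2 was -0.16 in the episomal pairs alone. For LIF withdrawal Nr2f2 was 0.01 with Cy3 alone and -0.16 to 0.03 without single lines. For RA against LIF Nr6a1 was -0.11 with Cy3 alone and Nr2f6 -0.04 to 0.25 without single lines. For RA against LIF withdrawal Nr5a2 was 0.04 with Cy3 alone, 0.14 with the bleaching correction, 0.00 with scaling and -0.14 to 0.10 without single lines. For the RA response of transgenic less parental lines Nr5a2 was -0.11 with processed signals and -0.11 with the authors' values, and Nr6a1 -0.29 with Cy3 alone and -0.13 with the bleaching correction. Of 1373 single values recomputed, 1279 kept their direction and side of the threshold, 48 lost and 18 gained a call, and 28 turned. The values kept include 74 with Aquantile, which could not change. They also include 763 from leaving out arrays, pairs or lines, where the array left out was often not part of the comparison. The share kept is therefore no measure of how stable the calls are.

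With the replicate number as a block the counts were 3 early, 4 late, 1 for the daily steps and 3 for the first day, and no call of a receptor changed. Arrays of 1 number deviated together with a mean r of 0.115 early (-0.137 to 0.341) and 0.155 late (-0.429 to 0.757). For arrays of different numbers the mean r was -0.115 early and -0.0706 late. As these values range widely, they cannot decide whether the numbers pair the samples. Aquantile leaves the log ratios as they are. A block for slide or scan was not run, since each array is a slide of its own and the early and the late files were each processed on 1 day. Signals near the negative controls limit Nr5a2, Nr6a1 and Nr2f2 on the late arrays.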
